A study of Homo sapiens with 6 samples.

Results

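In the human bladder cancer line T24, 126 protein-coding genes were higher than in the control under each of 2 siRNAs designed against the same circular RNA, out of 9960 protein-coding genes expressed at the level required. They include genes for a basement membrane collagen (COL4A1), a ceramide synthase (CERS6), receptor tyrosine phosphatases (PTPRK, PTPRG), dynein transport proteins (DYNC1LI2, BICD2) and the argonaute protein AGO2. A gene was taken when its mean level under siRNA1 and its mean level under siRNA2 were each at least 1.7 times its siControl mean, and when all 4 siRNA libraries lay above both siControl libraries. Levels were read counts scaled to library size (CPM) after TMM scaling, which adjusts libraries for differences in RNA composition, and the mean over the 6 libraries had to reach 5 CPM. The genes were thus selected on their measured levels in all 6 libraries, and their excess over siControl is a description with no test.

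The study transfected T24 cells with a control siRNA (siControl), siRNA1 or siRNA2, with 2 biological replicates of each, and sequenced their polyadenylated RNA. siRNA1 and siRNA2 differ in sequence and both target the looping site of circ_0000235 (circ235), a circle made from exons of CCNY. The question was which mRNAs change when circ235 is knocked down. A circle has no poly(A) tail, so these counts do not measure circ235, and the labels state no dose or time of transfection.

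Circular RNAs arise when the end of an exon is spliced back to the start of an upstream exon. An siRNA across that joint can cut the circle and spare the linear mRNA, but an siRNA also has a seed that can pair with 3′ UTRs of other mRNAs. A microRNA uses its seed in the same way, and a circle that binds a microRNA can keep it from its mRNA targets. In that model, loss of the circle lowers the targets of the microRNA.

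The microRNA that the study examined with circ235 is miR-330-5p. Its mature sequence (RefSeq, GRCh38.p14, minus strand of chr19:45639049-45639070) is shown because its seed defines the word searched for in the 3′ UTRs. The capitals mark the seed, bases 2 to 8.
hsa-miR-330-5p: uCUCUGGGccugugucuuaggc
The word that pairs with this seed is CCCAGAG, read on the mRNA strand. It stood in the longest 3′ UTR of 37 of the 126 genes (29.4%) and of 2077 of 9939 expressed protein-coding genes with an annotated 3′ UTR (20.9%). The 126 genes had longer 3′ UTRs, and per kilobase the word was less frequent in them, at 0.106 matches against 0.136. Among genes in the longest quartile of 3′ UTRs, 30 of 65 members (46.2%) and 39.1% of all genes held it. In the quartile below, the order was the other way, with 4 of 40 members (10%) and 22.2% of all genes. The stretches below, from GENCODE release 29 (GRCh38), are matches in the genes with the largest folds among those that hold the word, with the matched word in capitals.
CERS6 (plus strand, chr2:168772240-168772261): tcacattcaaaccttCCCAGAG
COL4A1 (minus strand, chr13:110149976-110149997): aattaattttctaccCCCAGAG
ITPR2 (minus strand, chr12:26337814-26337835): acaaagctgttgggaCCCAGAG
BICD2 (minus strand, chr9:92714569-92714590): aatttcttccccaagCCCAGAG
A match describes the letters of the annotated transcript and does not show that the microRNA binds there. The 126 genes were chosen as higher under the siRNAs, and an action of miR-330-5p on them was not tested. The sequences of the siRNAs were not used here, so their own seeds were not searched.

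The libraries held 15373992 to 19912893 counts, and replicates differed by more than counting error (chi-square over degrees of freedom, 23.4 to 34.9). Markers of the epithelial origin of T24 were mixed. The keratins KRT7, KRT8 and KRT18 were at 616 to 1256, 1096 to 2162 and 934 to 2280 CPM. In contrast, EPCAM was at 1.27 to 2.95 CPM, and KRT19, KRT5 and the epithelial cadherin CDH1 were each under 0.3 CPM in every library. The adhesion receptor CD44, which is not a marker of epithelial origin, was at 599 to 1163 CPM. The mesenchymal filament gene VIM was at 496 to 1482 CPM, and the luminal urothelial gene UPK3A and the leukocyte gene PTPRC were at 0 in all 6 libraries. Mitochondrial transcripts took 4.58% to 5.93% of counts. The siControl libraries stood apart from each other for these genes. In 112 of the 126 the level was lower in siControl replicate 1 than in siControl replicate 2, against 53.7% of expressed protein-coding genes, and the median ratio of replicate 2 to replicate 1 was 1.19 over the 126 and 1.02 over all.

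The genes together took 0.306% and 0.405% of raw counts in siControl, 0.698% and 0.727% in siRNA1, and 0.903% and 0.991% in siRNA2. These shares had no TMM scaling, so they also carry the difference in composition between libraries. Without TMM factors the median log2 fold of siRNA2 over siRNA1 was 0.37 over all genes tested, against 0.04 with them. Their median level was 9.25 and 10.998 CPM in siControl, 20.7 and 20.5 CPM in siRNA1, and 20.5 and 23.3 CPM in siRNA2. All 4 siRNA libraries thus had medians close to each other and well above both control libraries, by the way the genes were chosen. A bulk library cannot tell fewer cells with a transcript from less transcript per cell.

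**Figure D1:**
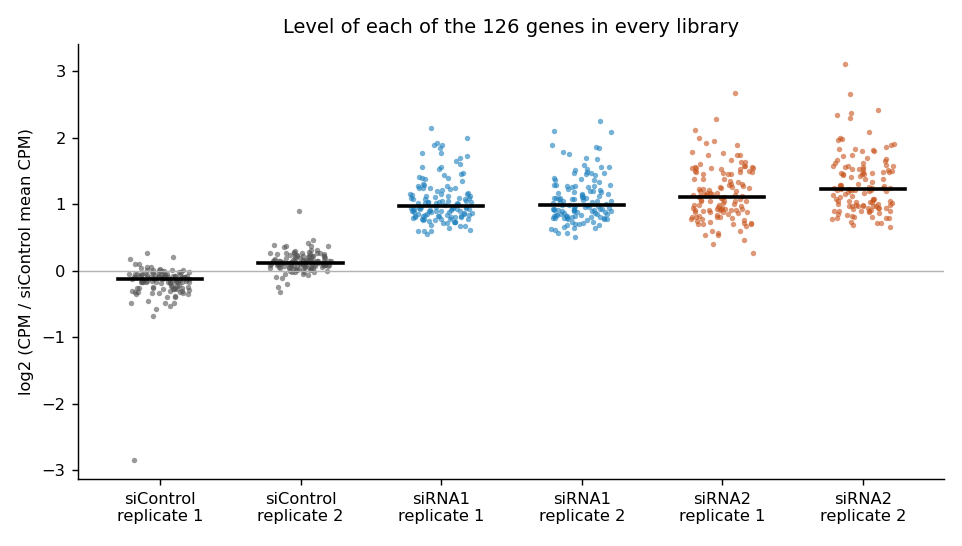
Log2 ratio of CPM to the siControl mean (vertical axis) for each of the 126 genes (points) in the 6 libraries (horizontal axis), with the median as a bar. The siControl replicate 1 values sit mostly below 0, those of siControl replicate 2 mostly above 0, and all medians of the siRNA libraries lie near 1; the lone low point in siControl replicate 1 is PTPRK.

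Most of the genes were weakly expressed in control cells. The siControl mean had a median of 9.91 CPM against 34.5 CPM over all 9960 genes, and 64 of the 126 were under 10 CPM. The fold under siRNA1 ran from 1.71 to 4.58 with a median of 1.99, and the fold under siRNA2 ran from 1.702 to 7.51 with a median of 2.23. The fold was larger under siRNA2 for 84 genes and larger under siRNA1 for 42. This turned round, to 36 and 90, once a smooth trend over length and GC content of the transcript was removed from each library. It reached 2 under both siRNAs for 42 genes, under a single siRNA for 62 and under neither for 22. Each step of the choice narrowed the list: 410 of the 9960 genes reached 1.7 under siRNA1, 1493 under siRNA2 and 127 under both. Without regard to fold, 1274 of the 9960 genes (12.8%) had all 4 siRNA libraries above both siControl libraries.

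**Figure D2:**
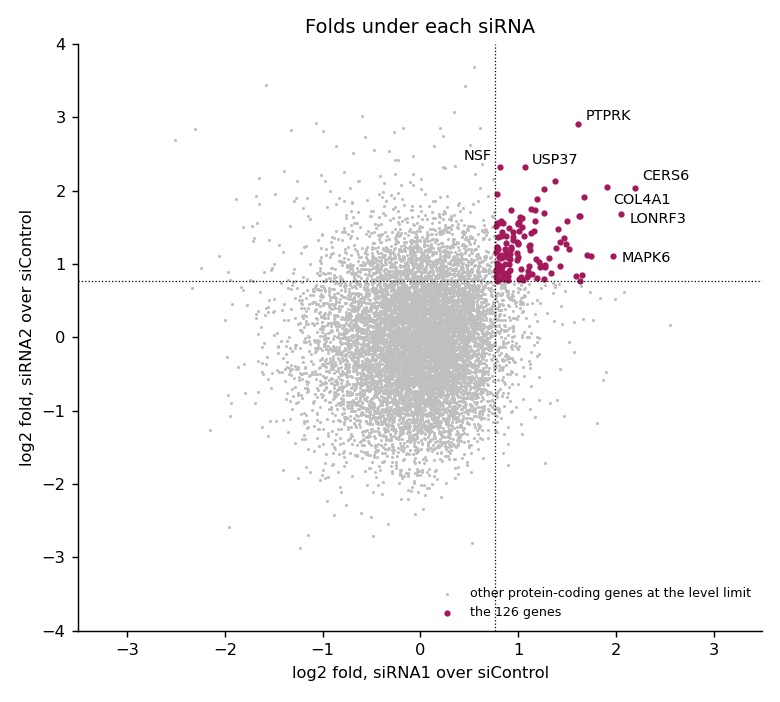
Log2 fold over siControl under siRNA1 (horizontal axis) and under siRNA2 (vertical axis) for 9960 protein-coding genes, with the 126 chosen genes in colour. Dotted lines mark the fold limit of 1.7, and the chosen genes fill the upper right corner, with PTPRK highest under siRNA2 and CERS6 farthest under siRNA1.

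Near the limit the choice was fine-grained. WNT7B and CHST11 were among the nearest inside, with a smaller fold of 1.702 and 1.709. NUS1, NHLRC3 and APBB2 were the nearest outside, with a smaller fold of 1.698, 1.698 and 1.694. The list also moved with the control libraries. Chosen without siControl replicate 2 it held 268 genes, 120 of them among the 126, and chosen without siControl replicate 1 it held 96, with 70 shared. Of the 126 genes, 64 were chosen whichever siControl library was left out.

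Matrix and cell surface genes held some of the largest folds. COL4A1 (ENSG00000187498.14, minus strand of chr13:110148963-110307233) encodes a chain of the type IV collagen network in basement membranes. It was at 18.4 and 24.3 CPM in siControl, 80.7 and 79.0 CPM in siRNA1, and 85.0 and 90.9 CPM in siRNA2. Its mean went from 21.3 ± 4.17 (SD, n = 2) to 79.8 ± 1.21 and 88.0 ± 4.18 CPM, folds of 3.74 and 4.13, and the siRNA libraries were all at least 79.0 CPM. LAMC1, a laminin chain of the same membranes, was at 62.0 and 76.2 CPM in siControl, 150 and 127 CPM in siRNA1, and 201 and 203 CPM in siRNA2. MMP3, a secreted protease that degrades matrix, was at 2.76 and 2.95 CPM in siControl, 9.71 and 8.44 CPM in siRNA1, and 12.3 and 9.27 CPM in siRNA2. For both genes the replicates of a group lay close and the gap to the control, which the choice required, was wider than their spread. TGFBI, a secreted adhesion protein of the matrix, had folds of 2.33 and 2.04. These 4 were the members among 27 expressed genes of a matrix list, a share of 14.8% against 1.27% of all expressed protein-coding genes. The whole list had a median log2 fold of 0.17 under siRNA1 and 0.30 under siRNA2, beside -0.01 and -0.02 for all genes. At a limit of 1.7-fold, 6 of the 27 were up and 4 down under siRNA1, and 10 up and 2 down under siRNA2. A list of integrins and adhesion genes held 0 members among 18 expressed genes. The lists were drawn up with earlier results of these data known.

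Also among the members were 4 genes that build or carry sulfated sugar chains of the cell surface. GPC4, a heparan sulfate proteoglycan anchored in the membrane, had folds of 2.17 and 2.39. CHSY1 and CHST11, which extend and sulfate chondroitin, had folds of 1.88 and 2.19 and of 1.71 and 1.87. PAPSS2, which makes the sulfate donor, had folds of 1.72 and 2.03. This family of 29 genes was put together after its members were seen. PODXL, a sialylated surface protein of podocytes and epithelia, went from 4.72 ± 0.543 CPM to 12.5 ± 1.66 and 13.1 ± 0.108 CPM.

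Among secreted factors, EREG, a ligand of the EGF receptor, was at 66.4 and 78.4 CPM in siControl, 160 and 245 CPM in siRNA1, and 163 and 188 CPM in siRNA2. CSF3, the granulocyte colony-stimulating factor, was at 5.05 and 5.47 CPM in siControl, 17.3 and 16.9 CPM in siRNA1, and 11.3 and 11.6 CPM in siRNA2. The siRNA1 replicates of EREG were far apart, those of CSF3 close together. STC1, a secreted glycoprotein hormone, had folds of 2.25 and 2.99. IGFBP1, which binds insulin-like growth factors, had folds of 1.99 and 2.94. WNT7B, a Wnt ligand, had folds of 1.72 and 1.702. The Wnt receptor FZD5 was also a member, at 1.72 and 1.84.

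Several receptors were members as well. IGF1R, the receptor of insulin-like growth factor 1, was at 12.9 and 15.97 CPM in siControl, 24.7 and 24.6 CPM in siRNA1, and 39.4 and 42.9 CPM in siRNA2. Its levels stepped up from siControl to siRNA1 to siRNA2 with no overlap of groups. IL1RAP, the shared subunit of interleukin-1 family receptors, had folds of 2.00 and 2.43. IL6R, the interleukin-6 receptor, had folds of 1.75 and 1.87. ACVR2B, an activin receptor, had folds of 1.86 and 1.73. F3, the tissue factor that starts coagulation, had folds of 2.70 and 1.97.

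Enzymes of signalling followed. PTPRK (ENSG00000152894.14, minus strand of chr6:127968779-128520674), a receptor tyrosine phosphatase of cell contacts, had the largest combined fold. It was at 0.263 and 3.502 CPM in siControl, 6.97 and 4.58 CPM in siRNA1, and 12.02 and 16.3 CPM in siRNA2. The fold of 7.51 under siRNA2 leaned on the low control: siControl replicate 1 held only 4 counts, and replicate 2 came close to the lower siRNA1 library. PTPRG, PTPN21 and PTPN4 were members too, with folds of 1.87 and 2.00, of 1.77 and 2.98, and of 2.06 and 1.72. In this phosphatase family of 22 expressed genes, grouped after the members were seen, 4 genes were members and the median log2 fold was 0.17 under siRNA1 and 0.83 under siRNA2. PTPN21 overlaps SPATA7 on the opposite strand and PTPRG overlaps PTPRG-AS1, and counting without strand could not separate these pairs.

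Several members act in growth factor signalling. MAPK6, an atypical MAP kinase, was at 12.1 and 14.1 CPM in siControl, 47.1 and 55.6 CPM in siRNA1, and 17.3 and 39.0 CPM in siRNA2. Its siRNA2 replicates were apart by more than its whole control level. NRAS, a RAS GTPase, was at 82.0 and 102 CPM in siControl, 174 and 175 CPM in siRNA1, and 185 and 239 CPM in siRNA2. GSK3B, a kinase that restrains beta-catenin, was at 39.6 and 49.9 CPM in siControl, 104 and 92.1 CPM in siRNA1, and 117 and 123 CPM in siRNA2. In NRAS and GSK3B the lowest siRNA library was well above the highest control, though the choice already required it to be above. ABL2, a tyrosine kinase of the actin cytoskeleton, had folds of 1.71 and 2.24.

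Calcium and inositol lipid genes were also among them. ITPR2, an inositol trisphosphate receptor that releases calcium, was at 4.07 and 3.56 CPM in siControl, 10.6 and 13.2 CPM in siRNA1, and 9.07 and 15.03 CPM in siRNA2. Its means under the siRNAs, 11.9 and 12.05 CPM, were alike. The phosphatases INPP5A, INPP4B and MTM1 had folds of 1.99 and 2.46, of 2.04 and 1.90, and of 1.82 and 2.01. ATP2B4, a calcium pump of the plasma membrane, had folds of 2.24 and 2.74. DOCK4, ARHGEF3 and ARHGAP31 had folds of 2.03 and 3.12, of 1.79 and 2.96, and of 1.73 and 2.95. In the nutrient-sensing Rag GTPase pathway RRAGD and FNIP2 had folds of 2.52 and 1.84 and of 2.40 and 1.74. They were 2 of 12 genes of a family put together after the members were seen, in which LAMTOR4, LAMTOR2 and RRAGA were at 0.413, 0.481 and 0.644 of siControl under siRNA2.

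Among the members were 1 of 40 listed secretory coat and SNARE genes (2.5%) and 1 of 36 listed lysosome and autophagy genes (2.78%). They also included 1 of 41 RAB genes (2.44%) and 0 of 25 sorting nexins. The share over all expressed protein-coding genes was 1.27%, and counts this small show neither a shortage nor an excess. STX17 and PPT1, given below, were members outside these lists. DYNC1LI2, a light intermediate chain of cytoplasmic dynein, was at 17.98 and 35.9 CPM in siControl, 71.7 and 68.1 CPM in siRNA1, and 101 and 136 CPM in siRNA2. BICD2, an adaptor that links dynein to cargo, was at 25.9 and 33.2 CPM in siControl, 77.7 and 89.3 CPM in siRNA1, and 88.4 and 89.3 CPM in siRNA2. The control replicates of DYNC1LI2 differed by nearly as much as their lower value, whereas those of BICD2 were close. Of 20 expressed dynein, dynactin and BICD genes only these were members, and the family was put together after they were seen. STX17, a SNARE of autophagosomes, had folds of 2.25 and 3.32. RAB31, a GTPase of endosomes, had folds of 1.78 and 1.85. LAMP2, a lysosomal membrane protein, was at 119 and 146 CPM in siControl, 227 and 228 CPM in siRNA1, and 255 and 245 CPM in siRNA2. PPT1, a lysosomal thioesterase, had folds of 1.98 and 2.08, with exons that overlap CAP1 on the opposite strand.

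Among genes of metabolism, CERS6 (ENSG00000172292.14, plus strand of chr2:168455862-168775137) encodes a ceramide synthase of the endoplasmic reticulum. It was at 5.32 and 6.39 CPM in siControl, 25.8 and 27.8 CPM in siRNA1, and 19.6 and 28.6 CPM in siRNA2. Its fold of 4.58 was the highest of the 126 under siRNA1, and it was 4.12 under siRNA2. SOD2, the manganese superoxide dismutase of mitochondria, was at 961 and 981 CPM in siControl, 2157 and 2364 CPM in siRNA1, and 2012 and 1760 CPM in siRNA2. SOD2 had the highest counts of the list, so its share of reads weighs most in the summed values above. ERO1A, which drives disulfide formation in the endoplasmic reticulum, had folds of 2.61 and 2.32. INSIG1, which restrains cholesterol synthesis, had folds of 2.49 and 2.11. IDH1, the cytosolic isocitrate dehydrogenase, had folds of 1.79 and 1.94. GFPT1, which opens the hexosamine pathway, had folds of 1.87 and 1.86. The fatty acid-sensing nuclear receptors PPARG and PPARA were both members. PPARG was at 23.2 and 22.7 CPM in siControl, 39.8 and 45.4 CPM in siRNA1, and 49.1 and 50.8 CPM in siRNA2. PPARA had folds of 1.89 and 1.88, and PPARD, which was no member, had folds of 0.512 and 0.898.

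Genes that act on RNA, chromatin and protein turnover included AGO2, the slicing argonaute through which siRNAs and microRNAs work. AGO2 was at 70.4 and 77.0 CPM in siControl, 126 and 127 CPM in siRNA1, and 162 and 185 CPM in siRNA2. The folds of 1.72 and 2.35 came with tight replicates. AGO2 was the only member among 13 genes of the RNA silencing list. AGO1 had folds of 0.648 and 1.51, AGO3 1.06 and 1.59, and AGO4 1.09 and 2.53. G3BP2, a stress granule protein, was at 31.9 and 39.8 CPM in siControl, 86.5 and 76.9 CPM in siRNA1, and 122 and 143 CPM in siRNA2. CELF1 and RBFOX2, which regulate splicing, had folds of 1.73 and 2.30 and of 3.02 and 1.79, and CELF1 overlaps NDUFS3 on the opposite strand. LONRF3, a RING finger protein, was at 4.003 and 4.36 CPM in siControl, 16.8 and 17.9 CPM in siRNA1, and 12.2 and 14.6 CPM in siRNA2. USP37, a deubiquitinase, was at 1.97 and 2.21 CPM in siControl, 4.01 and 4.75 CPM in siRNA1, and 7.72 and 13.2 CPM in siRNA2. For LONRF3 the siRNA1 libraries were above the siRNA2 libraries, and for USP37 below. The zinc finger gene ZNF714 had folds of 2.40 and 4.07. Of 300 expressed zinc finger genes 5 were members, a share of 1.67%, close to the 1.27% of all expressed protein-coding genes. FOPNL, a centrosomal protein gene now named CEP20, had folds of 3.09 and 3.14.

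**Figure D3:**
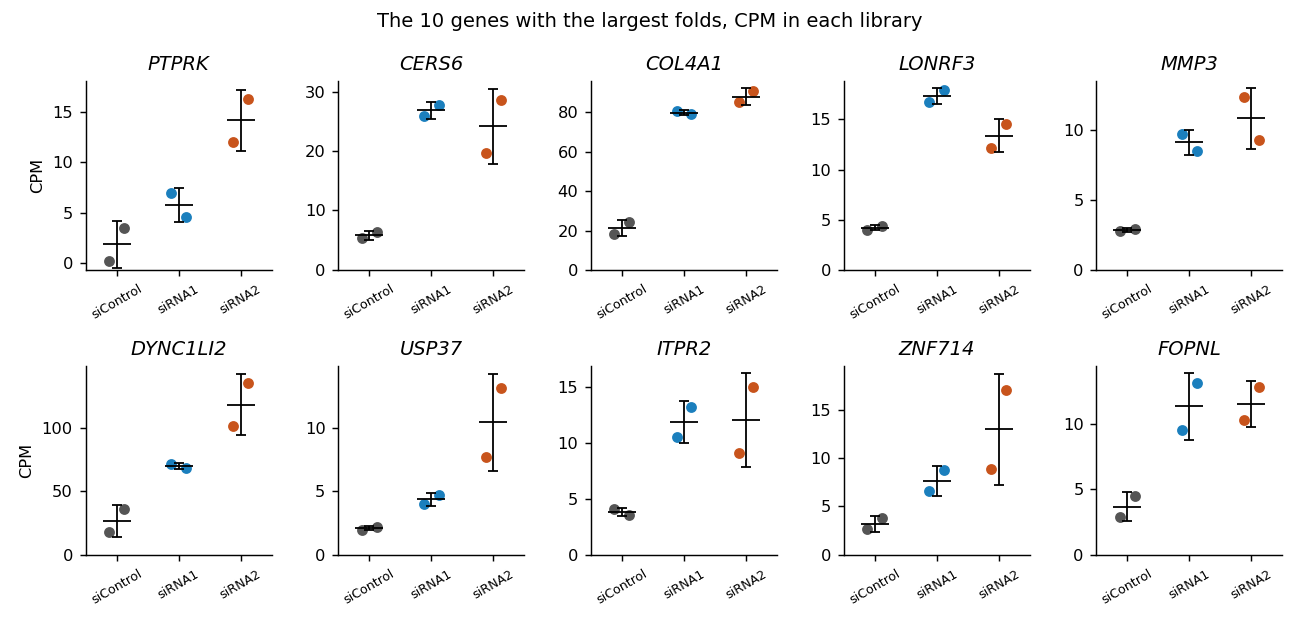
CPM (vertical axes, each with its own scale) of the 10 genes with the largest combined fold in the 2 libraries (points) of siControl, siRNA1 and siRNA2, with mean and SD. Every siRNA point lies above both siControl points, as the choice required, and the siControl points of PTPRK and DYNC1LI2 are the most spread relative to their mean.

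Many short lists of familiar response programs held no member, which does not show that the programs had no gene among the 126. None of the 126 was among the expressed genes of the lists for ATF4 targets (25), interferon response (18), p53 targets (22), immediate early factors (21), hypoxia (18), glycolysis (21), NRF2 targets (18), heat shock chaperones (14), DNA replication (26) or mitosis (25). At the background share of 1.27%, lists of this size would hold few members in any case. None was among 89 cytosolic ribosomal protein genes, 72 mitochondrial ribosomal protein genes or 42 complex I subunits, whose median log2 folds were 0.17, 0.09 and 0.17 under siRNA1 and -1.20, -0.74 and -1.02 under siRNA2. In all, 29 of the 126 genes were in a list or family written from general knowledge, with earlier results of these data known. The matching share of all expressed protein-coding genes was not counted, so this number shows neither an excess nor a shortage.

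The difference between the siRNAs was tested over all 14415 genes that passed the filter on low counts, with edgeR's quasi-likelihood test and Benjamini-Hochberg adjustment at a threshold of 0.05. All 126 genes were tested. Of them, 15 (11.9%) were higher under siRNA2, against 21.1% of all genes tested, and 3 (2.38%) were lower, against 18.6%. The other 108 passed in neither direction, which does not show that they were equal. The shares are not independent of the choice, which required higher levels under both siRNAs. The median log2 fold of siRNA2 over siRNA1 was 0.15 over the 126 genes and 0.04 over all genes tested. Scaling moved the split. Without TMM factors, which put the median of all genes at 0.37, 35 members were higher and 0 lower in edgeR (1 lower at an unadjusted p under 0.05). DESeq2 with its own size factors found 16 higher and 4 lower. Over all genes the split was 4534 higher and 1496 lower without TMM factors, against 3047 and 2678 with them. With the trend over length and GC content removed, 6 members were higher and 27 lower, and 2610 and 3181 of all genes. Single libraries mattered as well: the 18 called genes became 4 without siRNA1 replicate 1, 4 without siRNA1 replicate 2 and 9 without siRNA2 replicate 2.

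Higher under siRNA2 was led by NSF, the ATPase that takes SNARE complexes apart after membrane fusion. It was at 2.69 and 5.96 CPM in siControl, 6.34 and 8.88 CPM in siRNA1, and 20.9 and 22.3 CPM in siRNA2. The log2 difference was 1.501 (SE 0.34, edgeR adjusted p = 0.00588). Under siRNA1 NSF barely cleared the higher control library, and near-identical copies of NSF on the same chromosome can share its reads, so its counts are uncertain. USP37 followed at 1.25 (SE 0.32, edgeR adjusted p = 0.0107). CEMIP2, a cell surface protein of hyaluronan turnover, was at 4.27 and 7.50 CPM in siControl, 11.6 and 8.66 CPM in siRNA1, and 22.7 and 22.9 CPM in siRNA2, a log2 difference of 1.18 (SE 0.29, edgeR adjusted p = 0.00895). GNL3L, a nucleolar GTPase, differed by 0.82 (SE 0.29, edgeR adjusted p = 0.0455). ARHGAP31 differed by 0.77 (SE 0.25, edgeR adjusted p = 0.0295). The other 10 had log2 differences of 0.55 to 0.76, among them IGF1R at 0.74, G3BP2 at 0.70, DOCK4 at 0.62, TPM4, an actin-binding tropomyosin, at 0.59, and LAMC1 at 0.55. With the length and GC trend removed, NSF, USP37, GNL3L, G3BP2 and SLC25A15 still passed. The other 10 did not, with ARHGAP31 at 0.08, IGF1R at 0.04, DOCK4 at 0.02 and CEMIP2 at 0.56 (edgeR adjusted p = 0.776, 0.854, 0.937 and 0.0772).

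Lower under siRNA2 than under siRNA1 were 3 members, of which RBFOX2 and SERPINB8 are described. RBFOX2 was at 17.7 and 22.1 CPM in siControl, 62.7 and 57.7 CPM in siRNA1, and 36.8 and 34.3 CPM in siRNA2, a log2 difference of -0.76 (SE 0.20, edgeR adjusted p = 0.0114). SERPINB8, an intracellular protease inhibitor, was at 25.5 and 25.3 CPM in siControl, 77.4 and 92.0 CPM in siRNA1, and 55.0 and 54.8 CPM in siRNA2, a log2 difference of -0.63 (SE 0.18, edgeR adjusted p = 0.0196). In both genes the groups did not overlap. Neither passed without TMM factors, where the adjusted p from edgeR was 0.159 for RBFOX2 and 0.262 for SERPINB8. At the other end, GFPT1 (46.2 ± 6.37, 86.3 ± 2.10 and 86.1 ± 4.16 CPM in siControl, siRNA1 and siRNA2) differed by 0.00 on the log2 scale with an SE of 0.18.

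**Figure D4:**
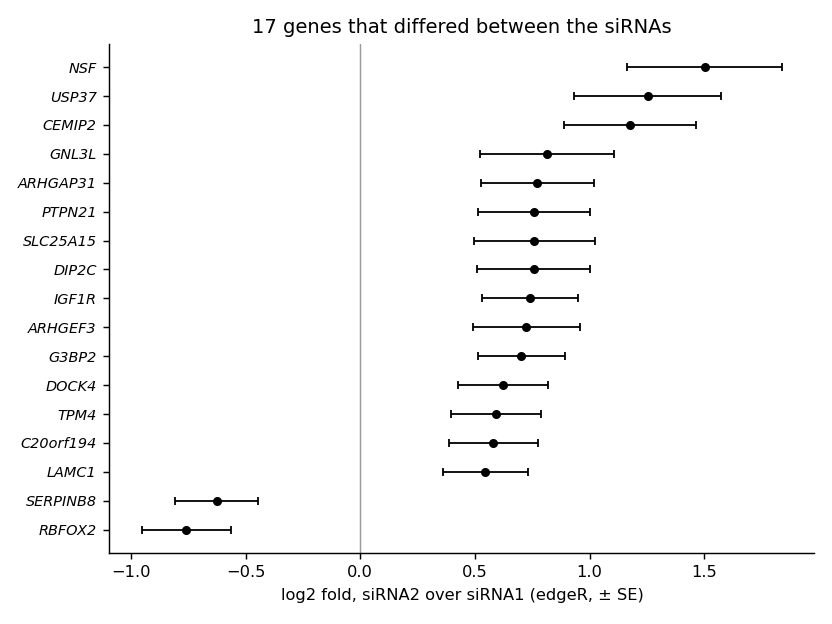
Log2 fold of siRNA2 over siRNA1 (horizontal axis, points with SE from edgeR) for 17 of the 18 genes past the threshold. NSF at 1.501 and RBFOX2 at -0.76 are the ends of the plotted range, with 15 genes to the right of 0 and 2 to the left.

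To read the difference from siControl in libraries that took no part in the choice, the genes were chosen again without each library and then read in it. The scaling still used all 6 libraries. Of 118 genes chosen without siRNA2 replicate 2, 100 (84.7%) were past 1.7-fold in that library, where 16.04% of all expressed protein-coding genes were. For siRNA2 replicate 1 the count was 98 of 139 (70.5%, against 14.0%). For siRNA1 replicate 1 it was 91 of 129 (70.5%, against 3.74%) and for siRNA1 replicate 2 it was 92 of 145 (63.4%, against 5.76%). These ratios use the siControl values on which the genes were selected as low, so the shares are a description and all genes are no comparison without selection. For a left-out siControl library the ratios use the siRNA values on which the genes were selected as high. The shares that follow are thus a description too. With siControl replicate 1 left out, 68 of 96 genes (70.8%, against 2.76%) had both siRNA means past 1.7 times its level. With siControl replicate 2 left out, the count was 68 of 268 (25.4%, against 1.01%), and the median ratio of the mean of the 4 siRNA libraries to siControl was 2.29 with replicate 1 as the control and 1.77 with the left-out library.

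The genes had features in common that the choice did not use. The longest annotated 3′ UTR had a median of 2842 nt over the 126 genes and 1412 nt over all 9960, and 105 of the 126 were above the latter. LPP, which encodes a focal adhesion protein, had the longest at 16192 nt, and PODXL the shortest at 180 nt. 3′ UTRs were taken from protein-coding transcripts of the annotation's basic set. For PODXL the longest of these had 2105 nt, against 6170 nt for its longest transcript of any type, so its 180 nt is uncertain. Gene span had a median of 87441 bp against 33397 bp, and transcript length 5404.5 nt against 3792 nt. Coding length differed less, at 1671 nt against 1374 nt. Transcript GC content was 44.9% against 48.0%, and only 2 members were in the quartile of highest GC content. By quartiles of 3′ UTR length the members made up 0.402%, 0.442%, 1.61% and 2.61% of genes. The share was higher in the longest than in the shortest quartile both among genes below the median level (2.98% against 0.892%) and among those above it (2.11% against 0.0675%).

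Folds of all genes and the ratio between the control replicates also varied with this length. From the shortest to the longest quartile of 3′ UTRs the median log2 fold of all genes went from -0.56 to 0.34 under siRNA2 and from -0.05 to 0.10 under siRNA1. The median log2 ratio of siControl replicate 2 to siControl replicate 1 went from -0.25 to 0.15. The trend that was removed was over transcript length and GC content, not 3′ UTR length. Without it, the median fold of the 126 genes was 1.97 under siRNA1 and 1.73 under siRNA2, and 62 of the 126 still met the criteria. PTPRK, CERS6, COL4A1, LONRF3, MMP3 and DYNC1LI2 were among those 62, while SOD2 and AGO2, with trend-removed folds of 1.31 and 1.34 under siRNA2, were not.

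**Figure D5:**
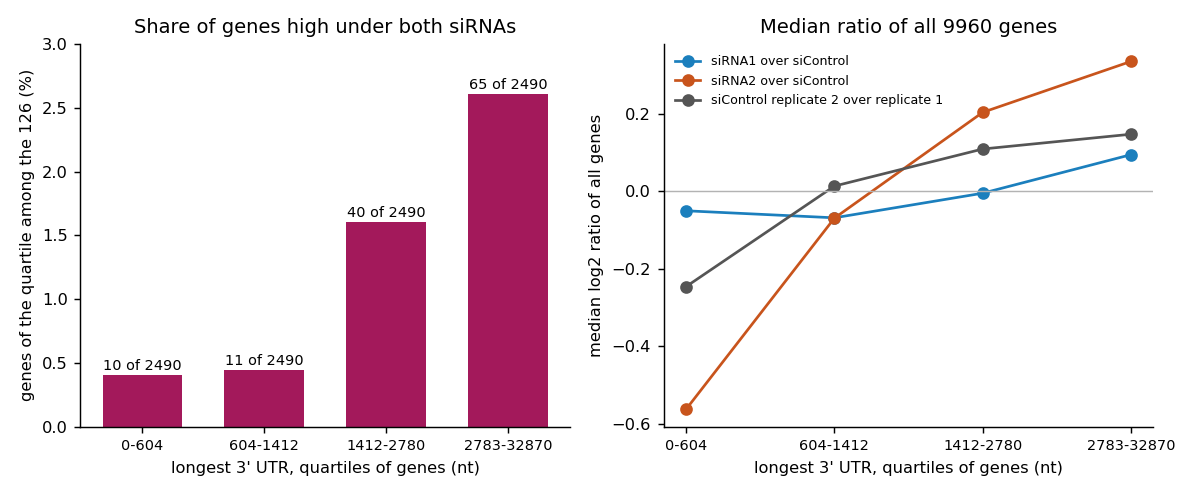
Left, percent of genes in each quartile of longest 3′ UTR length (horizontal axis, nt) that belong to the 126 genes, with counts. Right, median log2 ratio of all 9960 genes in each quartile for siRNA1 and siRNA2 over siControl and for siControl replicate 2 over replicate 1; the siRNA2 line runs from -0.56 to 0.34 and the control line from -0.25 to 0.15.

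In the genome the members were scattered. Their share of expressed genes was highest on chromosome 18, with 5 of 143 (3.497%), and on the X chromosome, with 9 of 313 (2.88%). Over all expressed protein-coding genes the share was 1.27%. Chromosome 3 held 13 of 570, chromosome 1 held 11 of 1036 and chromosome 19 held 3 of 719. Within 1 Mb of each other lay 5 pairs, ERO1A with DDHD1, FZD5 with IDH1, WNT7B with PPARA, VGLL4 with PPARG, and ARHGAP31 with GSK3B. Exons of 11 members overlap a gene on the opposite strand whose level was at least 0.2 of their own. For VGLL4, FAM169A and YPEL1 the partner was the stronger gene, with ATG7 at 90.6 CPM against 14.9 CPM for VGLL4, NSA2 at 109 against 7.66 for FAM169A and PPIL2 at 30.7 against 5.12 for YPEL1, so the values of these 3 genes are uncertain.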

How the data were processed

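RNA of T24 cells was selected by its poly(A) tail with oligo-dT and sequenced by a protocol that does not keep the strand. The authors deposited raw counts per gene, as whole numbers with no scaling. The labels' processing notes name FastQC, cutadapt, STAR and hg38. How reads were counted, and on which annotation, is not given in the sources used here. Each column was matched to its sample by name. Of 58288 identifiers, 99.5% matched GENCODE release 29 (GRCh38), the source of symbols, gene types, transcripts and 3′ UTRs.

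Library sizes were scaled with TMM factors over all identifiers (edgeR 4.0.16, R 4.3.3), and CPM without logarithm gave the members. siRNA2 and siRNA1 were compared by edgeR's quasi-likelihood test on the counts, with filterByExpr, a mean per condition over all 6 libraries and Benjamini-Hochberg adjustment. Features were those of the longest transcript and longest 3′ UTR. The 126 genes, the lists and the tests were chosen with earlier results of these data known. The text names the 10 genes of largest combined fold, the 10 of highest CPM, up to 5 called in each direction between the siRNAs, 3 on each side of the fold limit, and members of the lists and families; further members were chosen after their values were seen to show other roles.

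The replicates are labelled as biological, and with 2 per group p-values measure only the spread between these samples; the depth of 15373992 to 19912893 counts makes counting error small except for genes near 5 CPM or less. Results were recomputed with DESeq2 1.42.0, without TMM factors, without the filter, on the 4 siRNA libraries alone, with a replicate block, after removal of a spline trend (5 degrees of freedom) over length and GC content, at other limits and with each library left out. Chosen after seeing the data was TMM scaling on filtered genes. The code was tested on simulated data. A search of promoter motifs was void, since 96 of 126 members (76.2%, under the 80% required) had a promoter sequence. Values of a few members are not reported here by name.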

Additional observations from a re-analysis of the deposited data

Results flagged for a closer look

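The test between the siRNAs singled out 18 of the 126 genes, a difference in the effect of siRNA2 and siRNA1 tested with edgeR's quasi-likelihood test. On the log2 scale of siRNA2 over siRNA1 the values were 1.501 for NSF, 1.25 for USP37, 1.18 for CEMIP2, 0.82 for GNL3L, 0.77 for ARHGAP31, 0.76 for PTPN21, 0.76 for SLC25A15, 0.76 for DIP2C, 0.74 for IGF1R, 0.72 for ARHGEF3, 0.70 for G3BP2, 0.62 for DOCK4, 0.59 for TPM4, 0.58 for C20orf194 and 0.55 for LAMC1. They were -0.63 for SERPINB8 and -0.76 for RBFOX2. SLC25A15 is the mitochondrial ornithine carrier, and DIP2C and C20orf194 (now DNAAF9) are less studied. Groups of 2 libraries were too small to look for samples that stand out from their group.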

How the results depend on the processing

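The 126 genes became 82 with the length and GC trend removed, 286 at a fold of 1.5, 42 at a fold of 2 and 198 at a mean of at least 1 CPM, and 96 to 268 with a library left out. With no TMM factors there were 143, of which 92 were among the 126, and 32 of the 126 were chosen under all 9 alternatives of scaling and left-out libraries. The median log2 fold under siRNA1, 1.00 as reported, was 0.97 without TMM factors, 0.98 with DESeq2 size factors, 0.97 with the trend removed and 0.94 to 1.02 with a library left out. Under siRNA2, 1.16 as reported, it was 1.00 with the trend removed and 1.11 to 1.29 with a library left out. These medians are over lists chosen anew under each setting, which the fold limit keeps from falling far. For the 126 genes themselves the trend-removed median folds were 1.97 and 1.73.

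Between the siRNAs, 18 members were called. The number was 35 without TMM factors (35 higher, 0 lower, with 1496 of all genes lower) and 33 with the trend removed (6 higher and 27 lower, with 2610 and 3181 of all genes), where 8 of the 18 calls stayed. With a library left out it ran from 4 to 20, with 2 to 17 higher and 1 to 5 lower; over all genes from 2817 to 5558, with 1491 to 2923 higher and 1326 to 2729 lower. With the trend removed LAMC1 turned to -0.13 and C20orf194 to -0.078. The cause was not tested. The labels give no shared batch behind a replicate number, and deviations of same-numbered libraries correlated at -0.09 to 0.15 between groups. With the replicate number as a block 23 members were called, 16 of the 18 among them. DESeq2 called 20, including all 18. The search of promoter motifs had no value and was not run. The sequencing depth limits genes such as PTPRK, with 4 counts in a control library, and the number of libraries limits the rest.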
